A study of Mus musculus with 4 samples.

Results

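The solute carriers of the proximal tubule are the membrane proteins that carry glucose, lactate, amino acids, urate, drugs and salts into and out of the cells of the first part of the kidney tubule. Here 43 genes for such carriers were taken by name from the counts of 55401 mouse genes, and all 43 were found. They were listed by name for their place in the tubule, with earlier results of these data known. RNA-seq of 4 libraries was available, 1 for each group. The kidneys came from male C57BL/6 mice aged 8 weeks, collected 24 h after cecal ligation and puncture (CLP), an operation that causes sepsis by letting gut bacteria into the abdomen. One kidney group had CLP alone, and the other first drank melatonin (MLT), 25 μg/ml, for 14 days and then had CLP as well. The hearts were also from a CLP group and a CLP + MLT group, without a stated dose or time. All 4 groups therefore carried CLP, and sham libraries were not used here. Whether a library was made from 1 mouse or from a pool, and what the number that the names of both melatonin libraries carry means, is not stated in the sources. The kidney and the heart library of a treatment may therefore come from the same mouse or from different mice. With 1 library per group there is no replicate check, and every comparison below is between 2 libraries.

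Proximal tubule cells take back most of the filtered solutes. Carriers of the apical membrane, which faces the urine, bring solutes into the cell, mostly on the sodium gradient that the sodium pump of the other side maintains. Carriers of the basolateral membrane pass them on to the blood, or take up drugs and waste products from it for secretion. The early part of the tubule (segments S1 and S2) holds carriers of high capacity, and the late part (S3) holds others that recover what is left or exchange other solutes. Within such a pair the early and the late carrier often do the same work with low and high affinity.

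Counts on genes were 22927905 in the CLP kidney library and 16474248 in the CLP + MLT kidney library, and 16623050 and 15883057 in the heart libraries. Reads with more than 1 place in the genome, which were not counted, made up 23.6% to 38.6% of a library, and mitochondrial genes took 14.8% of the gene counts in CLP kidney and 24.2% in CLP + MLT kidney. The libraries of each tissue were scaled with the TMM method. Levels below are counts scaled to a common library total (normalized CPM), and levels of different genes are compared only per kb of exon. A log2 ratio is that of CLP + MLT over CLP. A gene was called higher or lower where it passed the study's own thresholds, a fold change of 1.5 or more and a p-value no higher than 0.01, here in an exact binomial test on the reads of both libraries. That test includes counting error only, so no p-value is printed, and the intervals in parentheses are 95% exact (Clopper-Pearson) intervals for counting error. PCR copies are not independent molecules and no interval covers the spread between mice.

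The kidney libraries held the markers of the whole tubule. Lrp2, the megalin gene of the proximal tubule, had 11434 counts in CLP and 9552 in CLP + MLT (log2 ratio 0.41). Umod of the thick limb had 94985 and 50359 counts (−0.24), Aqp2 of the collecting duct 7139 and 4741 (0.08), and Nphs1 of the podocyte 1134 and 756 (0.09). None of these 4 passed the thresholds. The member genes together took 0.950% of gene counts in CLP kidney and 0.858% in CLP + MLT kidney, but 0.0526% and 0.0706% in the hearts. With CLP, 36 of the 43 members were at least 10-fold higher in kidney than in heart, against 9.72% of all genes compared, and with CLP + MLT 35 of 43, against 9.28%. The exceptions are described with the heart.

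In kidney, 9 members were higher in the CLP + MLT library and 9 were lower, and 25 did not pass. Of all 16932 genes tested, 7.8% were called higher and 7.58% lower. Grouped by their place along the tubule, the members differed. Of the 9 carriers listed for the early part, 8 were lower (Slc5a12, Slc5a2, Slc6a19, Slc2a2, Slc4a4, Slc7a7, Slc7a8 and Slc22a6) and 1, Slc22a8, was higher. Of the 10 listed for the late part, 4 were higher (Slc7a13, Slc7a12, Slc22a13 and Slc15a2) and 0 were lower. The median log2 ratio was −1.26 for the early list, 0.57 for the late list and 0.15 for the 24 members on neither, beside 0.0029 for all genes tested. Both lists were written from general knowledge with earlier results of these data known, so their directions are no independent evidence. With a coefficient of variation of 0.2 between mice assumed in the exact test of edgeR, 2 members were called higher and 6 lower (1.71% and 1.95% of all genes), and with 0.4 the counts were 0 and 1 (0.136% and 0.396%). Scaled by library size alone, which moved the median of all genes to −0.19, 4 members were higher and 10 lower (4.29% and 14%), and the 8 members with the smallest positive ratios, such as Slc5a1 and Slc1a1, turned to below 0.

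**Figure D1:**
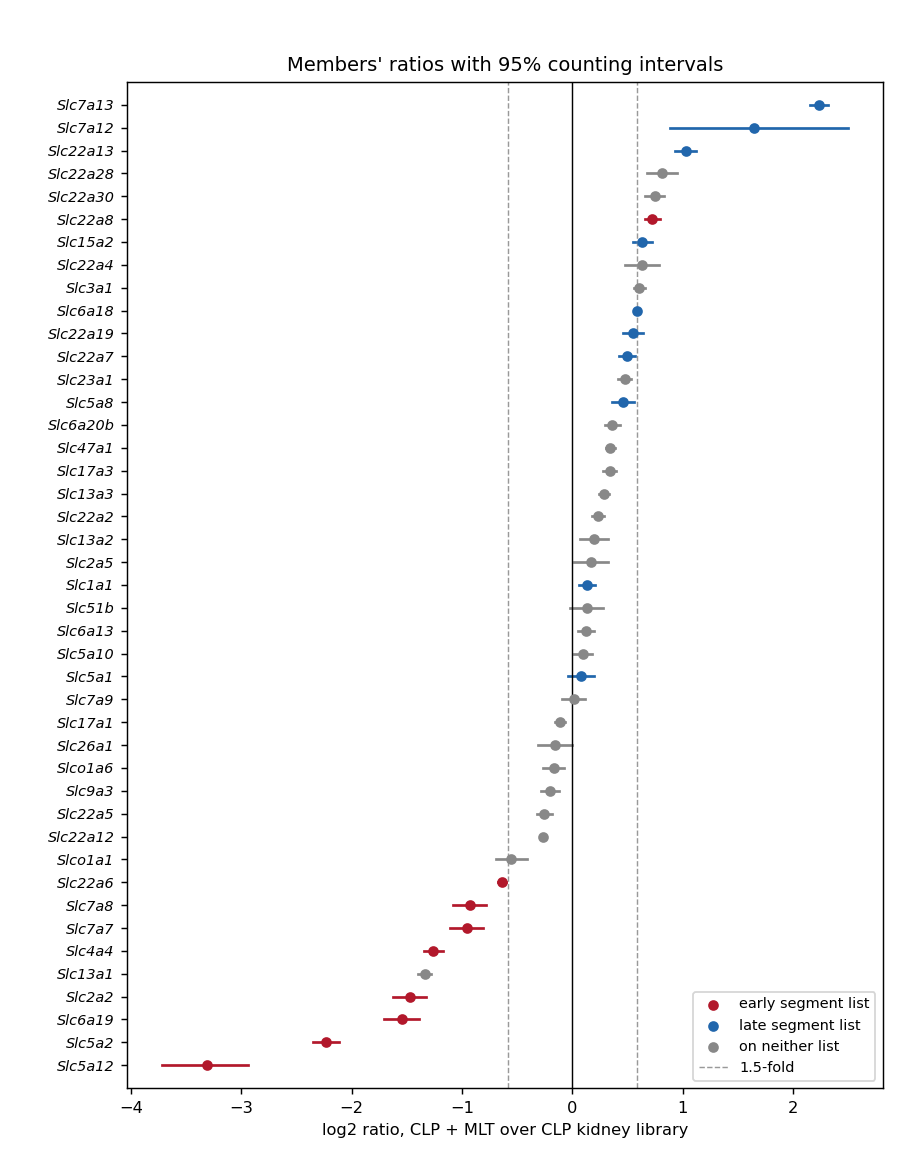
For each of the 43 members the log2 ratio between the kidney libraries (CLP + MLT over CLP, horizontal axis) is plotted with its 95% counting interval as a line, and dashed lines mark 1.5-fold. Members of the early list (red) lie below the lower dashed line except Slc22a8 at 0.73, and members of the late list (blue) lie between 0.08 and 2.24.

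The sugar carriers show this split within 1 group. Slc5a2 (chr7:128265657-128272430, + strand, mm10) encodes the apical sodium-glucose carrier of the early tubule, which takes up most of the filtered glucose and is the target of the gliflozin drugs. It had 4771 counts in CLP kidney and 637 in CLP + MLT kidney, and 237 and 183 counts in the hearts. Its normalized CPM in kidney fell from 194 to 41.4, 4.70-fold lower, a log2 ratio of −2.23 (−2.35 to −2.11). About 20.6% of its exon bases are also covered by BC017158 on the other strand, and the sources do not state a strand setting for the counting. Slc2a2 (chr3:28697903-28731359, + strand), the basolateral carrier through which glucose leaves the same cells, had 2024 and 457 counts in kidney and 32 and 14 in heart. It was 2.78-fold lower in the CLP + MLT kidney (−1.47, −1.62 to −1.33). The apical and the basolateral step of early glucose uptake were thus both lower in that library.

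The other 3 sugar carriers did not pass. Slc5a1, the late sodium-glucose carrier of higher affinity, had 1525 and 1009 counts in the kidneys and a log2 ratio of 0.08. The ratio was 0.10 for Slc5a10, a carrier of mannose and fructose, and 0.17 for Slc2a5, the fructose carrier. Per kb of exon, Slc5a2 stood 4.43 times as high as Slc5a1 in CLP kidney and 0.894 times as high in CLP + MLT kidney. The early carrier thus stood above the late one in the first library and below it in the second.

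The 2 monocarboxylate carriers, which take up lactate and pyruvate with sodium, form another such pair. Slc5a12 (chr2:110597298-110647779, + strand), the early carrier of low affinity, had 955 counts in CLP kidney, 60 in CLP + MLT kidney, and 15 and 5 in the hearts. It was the lowest member by ratio, 9.93-fold lower (−3.31, −3.72 to −2.94). Slc5a8, the late carrier of high affinity, had 1657 and 1430 counts in kidney and a ratio of 0.46 (0.36 to 0.56), which did not reach 1.5-fold. Per kb, Slc5a8 stood 1.32 times as high as Slc5a12 in CLP kidney and 18.2 times as high in CLP + MLT kidney.

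Of the 12 amino acid and peptide carriers, 4 were higher, 3 were lower and 5 did not pass, and their median log2 ratio was 0.25. Of all genes tested in kidney, 7.8% were called higher and 7.58% lower. The lower carriers, Slc6a19, Slc7a7 and Slc7a8, are all on the early list. Slc6a19 (chr13:73679745-73704865, − strand), the apical carrier of neutral amino acids that is mutated in Hartnup disorder, had 1876 and 403 counts in kidney and 16 and 24 in heart. It was 2.92-fold lower (−1.55, −1.71 to −1.39). Slc7a7 and Slc7a8 encode the light chains of 2 basolateral exchangers, for basic and for neutral amino acids.

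Slc7a7 had 1505 and 486 counts in kidney and 131 and 98 in heart, with a kidney ratio of −0.96 (−1.11 to −0.81). Slc7a8 had 1537 and 506 counts in kidney and 78 and 41 in heart, with a kidney ratio of −0.93 (−1.08 to −0.79). Both light chains need the heavy chain encoded by Slc3a2 to reach the membrane. Slc3a2 itself had 5064 and 1427 counts in kidney (−1.16, −1.24 to −1.07), the lone call among 10 transporter partners examined.

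The highest ratio of all members was that of Slc7a13 (chr4:19818725-19842218, + strand), the apical light chain of a late carrier of aspartate, glutamate and cystine. It had 1666 counts in CLP kidney and 4936 in CLP + MLT kidney, and 11 and 55 counts in the hearts. Its normalized CPM in kidney rose from 67.9 to 321, 4.72-fold (2.24, 2.16 to 2.32). Among members ranked per kb it moved from place 20 in CLP kidney to place 6 in CLP + MLT kidney. Its heavy chain, Slc3a1 (chr17:85028376-85064236, + strand), had 7143 and 6832 counts in kidney and a ratio of 0.61 (0.56 to 0.66), just past 1.5-fold. Of its exon bases, 26.5% are overlapped by Prepl on the other strand. The counts of Slc3a1 may therefore hold reads of Prepl or lack some of its own. Per kb, Slc3a1 stood 4.04 times as high as Slc7a13 in CLP kidney and 1.30 times as high in CLP + MLT kidney. Slc3a1 also serves Slc7a9, the light chain of the main cystine carrier. That gene, on neither segment list, had 2086 and 1319 counts and a ratio of 0.01 (−0.09 to 0.11).

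Slc7a12, another light chain listed for the late tubule, had few counts, 21 in CLP kidney and 42 in CLP + MLT kidney (1.64, 0.88 to 2.50). Slc15a2, the peptide carrier of high affinity, had 2410 and 2349 counts in kidney and a ratio of 0.63 (0.55 to 0.72). In the hearts it had 71.4 and 65.0 CPM, against 98.2 and 153 CPM in the kidneys. Slc6a18 (chr13:73661752-73678023, − strand), the neutral amino acid carrier of the late tubule, was the highest member of this group per kb in both kidney libraries. It had 20360 and 19161 counts in kidney and 173 and 436 in heart, and its kidney ratio of 0.58 (0.56 to 0.61) fell just short of 1.5-fold. Slc6a13, Slc6a20b and the glutamate carrier Slc1a1 had kidney ratios of 0.12, 0.36 and 0.13 and did not pass.

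The organic anion and urate carriers are the largest group, with 13 members. Of these, 4 were higher and 1 was lower (median 0.34), beside 7.8% and 7.58% of all genes tested in kidney. Slc22a6 and Slc22a8 encode the basolateral carriers that take up drugs, such as penicillins and diuretics, and waste anions from the blood. Slc22a6 (chr19:8618039-8628299, + strand) had 21697 and 8772 counts in kidney and 333 and 366 in heart, and its kidney CPM fell from 884 to 570 (−0.63, −0.67 to −0.60). Slc22a8 (chr19:8591254-8611835, + strand) had 3423 and 3555 counts in kidney and 68 and 158 in heart, and its kidney CPM rose from 140 to 231 (0.73, 0.66 to 0.79). These genes with like function were called in opposite directions. Neither call held at an assumed coefficient of variation of 0.2 or at a fold change of 2, and that of Slc22a8 did not hold under scaling by library size. Per kb, Slc22a6 stood 6.22 times as high as Slc22a8 in CLP kidney and 2.42 times as high in CLP + MLT kidney.

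The other 3 higher anion carriers were apical or of unassigned side. Slc22a13 (chr9:119192974-119209098, − strand), a carrier of nicotinate and urate, had 1601 and 2050 counts in kidney and 2 and 34 in heart. Its kidney ratio was 1.03 (0.93 to 1.12), 2.04-fold. About 28.7% of its 75-base words also occur in the pseudogene Slc22a13b-ps, so some of its reads may not have been counted. Slc22a28 had 882 and 972 counts in kidney (0.81, 0.68 to 0.95) and Slc22a30 had 2144 and 2261 (0.75, 0.66 to 0.83). This pair shares 44.8% of the words of Slc22a28 and 26.7% of those of Slc22a30, and their separate values are uncertain.

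Slc22a12 (chr19:6535845-6543032, − strand), the urate carrier that uricosuric drugs block, was the highest member per kb in both kidney libraries, at 672 and 561 CPM per kb. It had 37313 and 19531 counts in kidney and 383 and 647 in heart, and its kidney ratio of −0.26 (−0.29 to −0.24) did not reach 1.5-fold. Of its exon bases, 30.1% are overlapped by Nrxn2 on the other strand. The phosphate and urate carriers Slc17a1 and Slc17a3 had ratios of −0.11 and 0.34, and the late anion carriers Slc22a7 and Slc22a19 had 0.50 and 0.55. The organic anion polypeptides Slco1a1 and Slco1a6 had −0.55 and −0.17, and Slc51b, a subunit of the bile acid and steroid exporter, had 0.13. None of these 8, Slc22a12 included, passed.

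Among the 4 organic cation and carnitine carriers, 1 was higher, beside 7.8% of all genes tested in kidney. Slc22a4, a carrier of ergothioneine, had 685 and 666 counts in kidney and 365 and 325 in heart, with a kidney ratio of 0.63 (0.48 to 0.79). The basolateral cation carrier Slc22a2 had a ratio of 0.23, the carnitine carrier Slc22a5 −0.25 and the apical exporter Slc47a1 0.35. Slc47a1 was the highest of this group per kb, with 12832 and 10235 counts in the kidneys and 2213 and 2731 in the hearts.

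Of the 4 dicarboxylate and sulfate carriers, Slc13a1 (chr6:24088283-24168092, − strand), the apical sulfate carrier, was lower. It had 11423 and 2839 counts in kidney and 186 and 130 in heart, and its kidney CPM fell from 466 to 184, 2.53-fold lower (−1.34, −1.40 to −1.28). It is the lone lower member on neither segment list. The citrate and dicarboxylate carriers Slc13a2 (apical) and Slc13a3 (basolateral) had ratios of 0.19 and 0.29, and the basolateral sulfate exchanger Slc26a1 had −0.15. Slc13a3 was the highest of the group per kb, with 8616 and 6598 counts in kidney and 162 and 480 in heart. The apical and the basolateral sulfate carrier thus did not move by the same amount.

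Of the acid-base carriers, Slc4a4 (chr5:88886818-89239653, + strand), through which bicarbonate leaves the cell on the basolateral side, was lower. Its counts were 5616 and 1473 in kidney and 256 and 399 in heart, with a kidney ratio of −1.26 (−1.34 to −1.18). Slc9a3, the apical sodium-hydrogen exchanger, serves the apical step of bicarbonate recovery and had 3525 and 1924 counts (−0.20, −0.28 to −0.12). It was the higher of the group per kb in both kidneys. The vitamin C carrier Slc23a1 had 5023 and 4388 counts and a ratio of 0.48 (0.42 to 0.54), and did not pass.

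**Figure D2:**
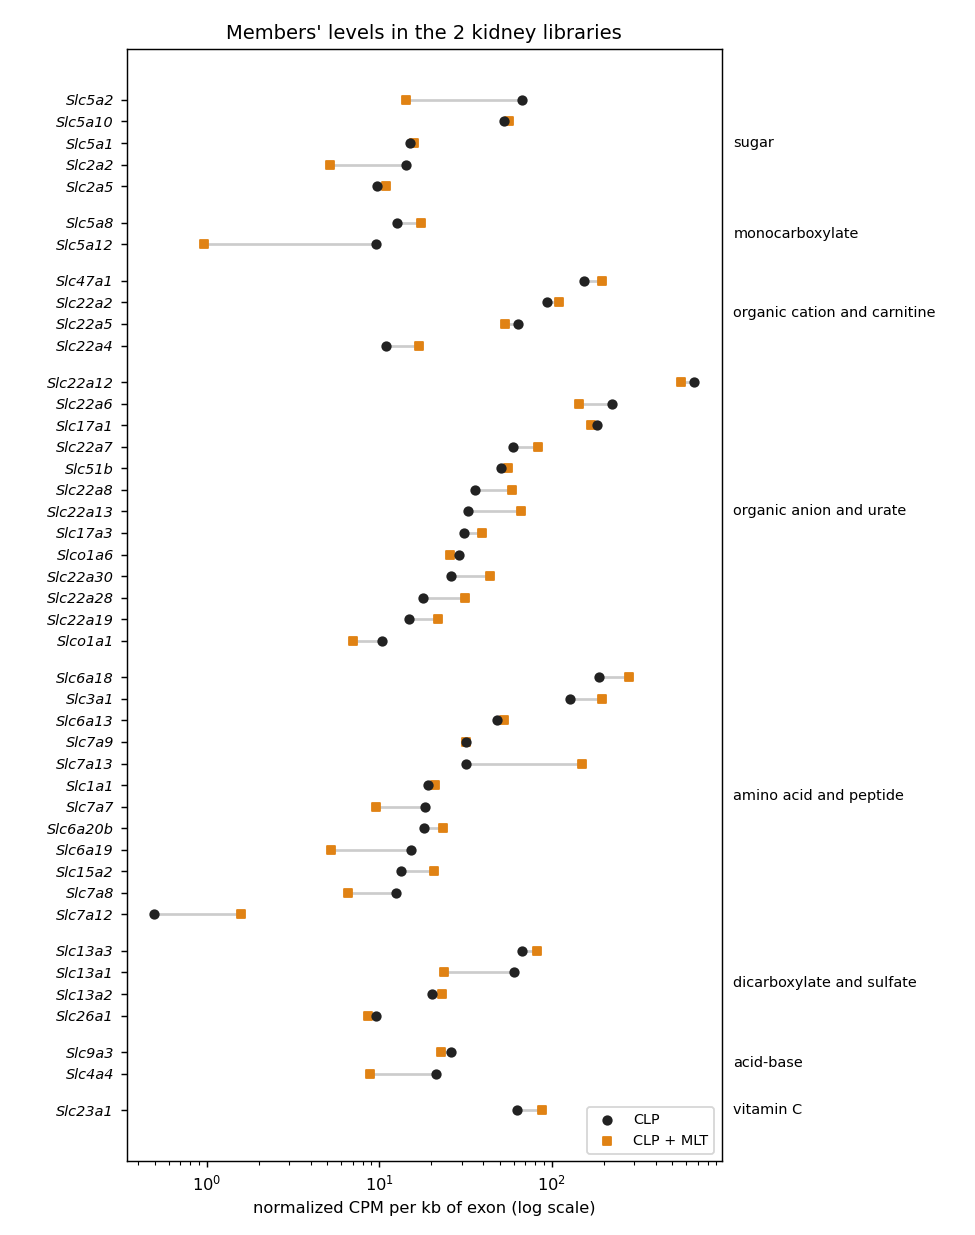
Normalized CPM per kb of exon (log axis) is plotted for each member in the CLP (black circles) and CLP + MLT (orange squares) kidney libraries, 1 library each, with members grouped by role. Slc22a12 is highest in both, and Slc5a12 has the widest gap between its points.

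By side of the membrane, 5 of 27 apical members were higher and 4 lower (median 0.17). Of 12 basolateral members, 1 was higher and 5 were lower (median −0.015), beside 7.8% and 7.58% of all genes tested in kidney. The 5 lower ones, Slc2a2, Slc4a4, Slc7a7, Slc7a8 and Slc22a6, are all on the early list too. All 3 apical members of the early list (Slc5a2, Slc5a12 and Slc6a19) were lower as well, and of the 6 basolateral members off that list 0 were lower. The normalized CPM of the early list summed to 1769 in CLP kidney and 1062 in CLP + MLT kidney, and that of the late list to 1556 and 2480.

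Within 200 kb of each other lie 6 pairs of members. Slc6a18 and Slc6a19 lie 1.7 kb apart on chromosome 13, with the same strand, and had kidney ratios of 0.58 and −1.55. Per kb, Slc6a18 stood 12.3 times as high as Slc6a19 in CLP kidney and 53.9 times as high in CLP + MLT kidney. Slc22a8 and Slc22a6 lie 6.2 kb apart on chromosome 19, with kidney ratios of 0.73 and −0.63, the one pair called in opposite directions. Slc17a1 and Slc17a3, 7 kb apart, had ratios of −0.11 and 0.34, and Slc22a4 and Slc22a5, 91.5 kb apart with Slc22a21 between them, had 0.63 and −0.25. The signs were the same for Slc22a8 and Slc22a30, 186.1 kb apart (0.73 and 0.75), and for Slco1a1 and Slco1a6, 138.8 kb apart (−0.55 and −0.17).

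Promoters are shown for Slc22a6 and Slc22a8, because these adjacent genes were called in opposite directions under counting error alone, and for Slc3a1, whose window alone among the members held the letters searched. These were CAAAGTCCA, on either strand, a site of HNF4, a transcription factor that keeps up proximal tubule genes. The sequences are RefSeq's, build GRCm38.p6, from 250 bases before to 50 bases from the start site on, 5′ to 3′ on the + strand of the genome, which is the strand of all 3 genes. Capitals mark the letters searched.
Slc22a6, chr19:8617746-8618045: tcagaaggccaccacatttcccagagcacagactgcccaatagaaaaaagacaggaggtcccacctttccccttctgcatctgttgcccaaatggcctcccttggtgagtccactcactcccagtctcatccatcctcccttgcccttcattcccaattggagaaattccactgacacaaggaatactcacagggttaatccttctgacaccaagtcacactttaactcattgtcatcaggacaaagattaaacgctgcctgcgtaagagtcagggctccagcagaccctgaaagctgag
Slc22a8, chr19:8592932-8593231: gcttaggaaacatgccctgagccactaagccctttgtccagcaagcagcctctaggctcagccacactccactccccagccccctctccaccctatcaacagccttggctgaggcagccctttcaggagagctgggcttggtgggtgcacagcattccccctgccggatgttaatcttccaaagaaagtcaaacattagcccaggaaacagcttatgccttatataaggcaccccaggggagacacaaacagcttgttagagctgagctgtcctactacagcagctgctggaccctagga
Slc3a1, chr17:85028097-85028396: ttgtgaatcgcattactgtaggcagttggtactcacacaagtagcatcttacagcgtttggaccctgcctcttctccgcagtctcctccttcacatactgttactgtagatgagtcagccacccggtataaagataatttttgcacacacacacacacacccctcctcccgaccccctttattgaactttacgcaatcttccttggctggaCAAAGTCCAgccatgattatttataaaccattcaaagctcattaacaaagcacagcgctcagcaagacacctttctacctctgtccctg
In Slc3a1 the HNF4 letters began 39 bases before the start. Neither Slc22a6 nor Slc22a8 holds them in this window.

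A promoter was given for 34 of the 43 members. CAAAGTCCA occurred in 1 of them (2.94%) and in 0.555% of all 27025 genes with a promoter. A match is a description of letters and no evidence of binding.

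Hnf4a, the gene of the HNF4 factor of the proximal tubule, had 10248 and 5925 counts in kidney and did not pass (−0.12, −0.16 to −0.07). Of the 10 transporter partners, which include scaffold proteins and the sodium pump, 9 did not pass, with a median over the list of 0.012.

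The other genes of the members' solute carrier families gave 124 symbols, of which 87 passed the filter on low counts. In kidney 10 of these 87 were higher and 6 lower, with a median of 0.20, against 9 and 9 of 43 for the members. Among all genes tested, 7.8% were called higher and 7.58% lower. The furthest from 0 among the called genes of these families were Slc2a10 and Slc1a2, a glutamate carrier. Slc2a10 had 31 counts in CLP and 1 in CLP + MLT (−3.84, −9.63 to −1.70), and Slc1a2 had 97 and 10 (−2.56, −3.71 to −1.67).

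Other gene lists in the kidney libraries moved as well, and their part in the members' result was not tested. Of 19 proximal tubule genes that are not transporters, 6 were higher and 2 lower (median 0.38). These included Mep1b, a brush border protease, with a ratio of 1.83, and Gatm, which makes the precursor of creatine, with −1.43. Of 8 genes of tubular injury, 6 were lower and 0 higher (median −2.22), among them Havcr1, the kidney injury molecule, with 1517 and 43 counts (−4.46). The summed CPM of that list was 11547 in CLP and 2532 in CLP + MLT. In bulk tissue, fewer cells of a type and less RNA per cell cannot be told apart, so a lower carrier may stand for either.

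Lists for other cell types had medians between −0.43 and 0.80. The thick limb and distal tubule list had 3 of 8 higher and 0 lower (median 0.22, summed CPM 5778 and 6121), and the collecting duct list 2 of 9 higher and 0 lower (0.41, 816 and 970). Of 5 podocyte genes 2 were lower (−0.29, 427 and 316), and of 5 endothelial genes none was called (−0.43, 219 and 177). Leukocyte genes were 3 higher of 5 tested (0.80, 45.0 and 113), with Ptprc at 147 and 179 counts and with Cd3e and Cd79a at 1 or 2 counts. Hepatocyte genes were not called (3 tested, Alb 114 and 71 counts, 173 and 168), with Ahsg and Tat at 0. Cardiomyocyte genes were 3 higher of 6 tested at low levels (summed CPM 9.82 and 15.7, Myh6 69 and 61 counts).

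**Figure D3:**
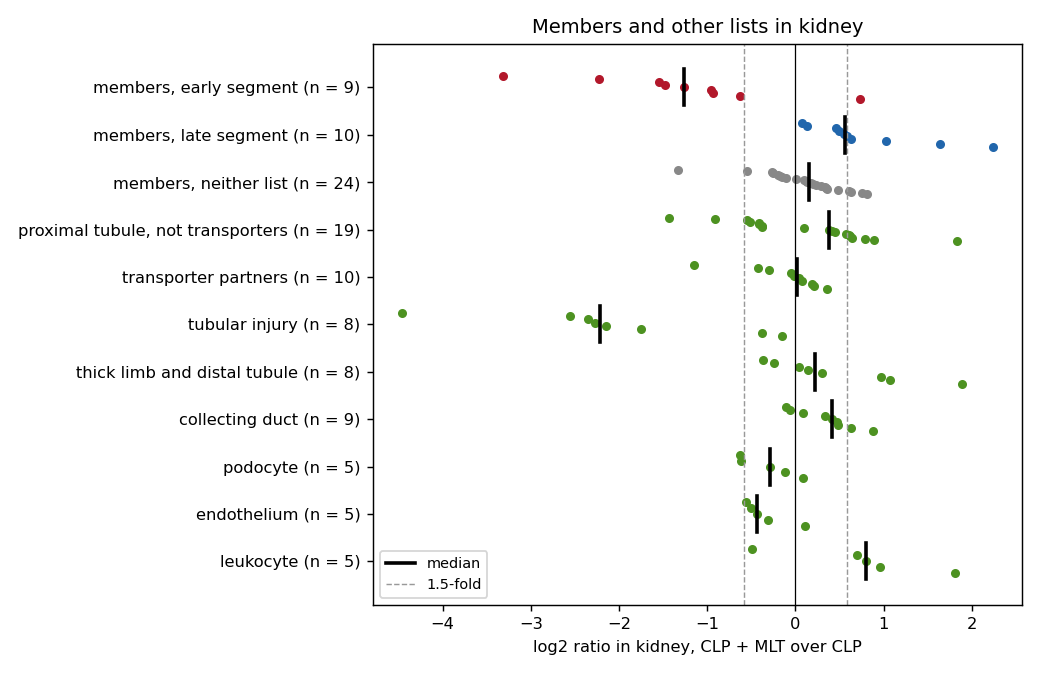
Each point is the log2 ratio of 1 gene between the CLP + MLT and CLP kidney libraries, in the members by segment list and in other gene lists, and black bars mark medians. The early members sit at a median of −1.26, the late members at 0.57 and the tubular injury genes at −2.22.

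In heart the members had far lower levels. As a share of the kidney level in the libraries of the same treatment, the heart level had a median of 2.15% with CLP and 3.97% with CLP + MLT. Exceptions were Slc22a4 (80.2% and 46.4%), Slc15a2 (72.7% and 42.6%), Slc22a5 (42.3% and 61.7%), Slc6a20b (26.0% and 23.7%), Slc47a1 (25.9% and 25.4%) and Slc7a7 (13.1% and 19.2%). These 6 were less than 10-fold higher in kidney than in heart with both treatments. Of the exon bases of Slc6a20b, 21.1% are overlapped by Sacm1l on the other strand. The counts of Slc6a20b may therefore hold reads of Sacm1l or lack some of its own. With CLP + MLT, Slc5a2 (27.3%) and Slc4a4 (25.8%), which were lower in that kidney library, joined them, from 7.47% and 6.86% with CLP. Slc22a5 supplies carnitine for the oxidation of fatty acids, and its heart levels were 83.1 and 102 CPM. With CLP, the median share was 2.99% for the early list and 0.793% for the late list, and with CLP + MLT it was 7.70% and 2.01%. Slc7a12 had 0 and 2 counts in the hearts. A count of 0 allows up to 3 counts, and against that floor its CLP kidney level was also less than 10-fold higher.

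**Figure D4:**
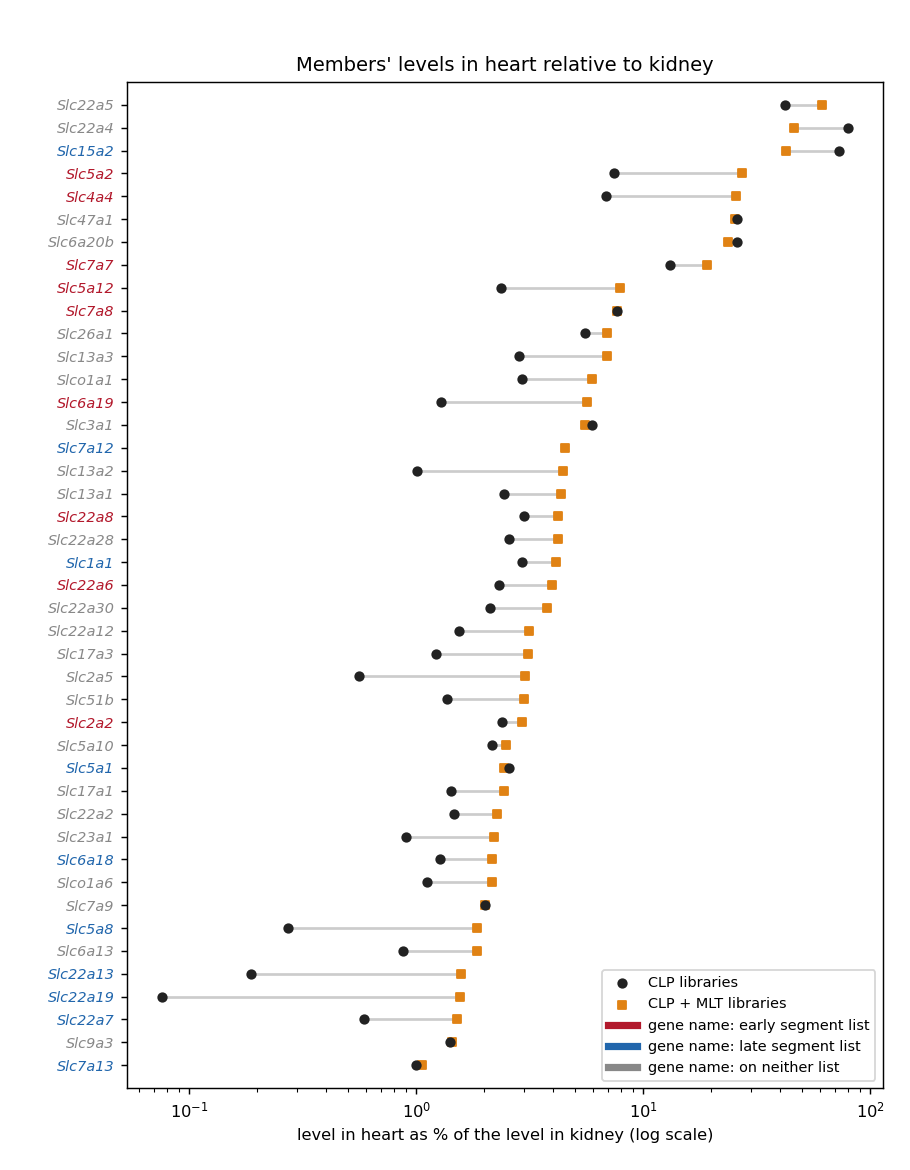
The level of each member in heart is given as a percentage of its level in kidney (log axis) for the CLP (black circles) and CLP + MLT (orange squares) libraries, 1 library each, and Slc7a12 has no CLP point because its heart count was 0. Most members lie below 10%, and Slc22a4, Slc15a2 and Slc22a5 lie highest.

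Between the heart libraries, 20 of 42 members tested were higher with CLP + MLT and 1, Slc7a8, was lower, against 7.15% and 8.78% of all 15871 genes tested. The median log2 ratio of the members was 0.64 and that of all genes 0.0023. Of the 20, 5 had fewer than 10 counts in CLP heart. They were Slc22a19 with 1 and 30 counts (4.35, 2.33 to 10.3), Slc22a13 with 2 and 34 (3.80, 2.13 to 7.20), Slc5a8 with 3 and 28 (3.03, 1.54 to 5.59), Slc2a5 with 3 and 18 (2.41, 0.82 to 5.00) and Slc13a2 with 8 and 40 (2.26, 1.22 to 3.64). Among better counted members, Slc13a3 had 162 and 480 counts (1.57, 1.32 to 1.84) and Slc6a18 173 and 436 (1.34, 1.09 to 1.61). The remaining 13 were Slc7a13, Slc22a7, Slc23a1, Slc17a3, Slc22a30, Slc22a28, Slc22a8, Slc6a13, Slc22a2, Slc22a12, Slc17a1, Slc4a4 and Slc1a1, with heart ratios from 0.63 to 2.28. On the other strand, 4430402I18Rik overlaps 31.9% of the exon bases of Slc1a1, and Slc13a2os overlaps 26.2% of those of Slc13a2. The counts of Slc1a1 and Slc13a2 may hold reads of these overlapping genes or lack some of their own.

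Of 9 late members tested, 7 were higher in CLP + MLT heart and 0 lower (median 1.81). Of the 9 early members, 2 were higher and 1 lower (median −0.36). Across tissues, 5 members were higher in both, 1 (Slc7a8) was lower in both, 14 were called in heart alone, and Slc4a4 was lower in kidney and higher in heart. No share over all genes is given for such overlaps, so these counts only describe the members. The heart call of Slc4a4 was lost at an assumed coefficient of variation of 0.2, at a fold change of 2 and with the whole interval required beyond 1.5-fold. No difference between the tissues was tested.

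Some other lists of kidney genes also had higher members in the CLP + MLT heart. Of 19 proximal tubule genes that are not transporters, 16 were higher and 1 lower (median 1.01, summed CPM 963 and 1454). Of 7 collecting duct genes tested 6 were higher and 0 lower (1.43, 14.4 and 37.5), with Aqp2 at 26 and 143 counts. The thick limb and distal tubule list had 2 of 7 higher and 0 lower (0.50, 71.5 and 103), with Umod at 459 and 468 counts, and of 4 podocyte genes tested none was called (0.02, 360 and 337). The defining heart gene Myh6 had 208975 and 158174 counts, and the cardiomyocyte list had 2 of 7 lower (median −0.39). Their part in the members' heart ratios was not tested.

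**Figure D5:**
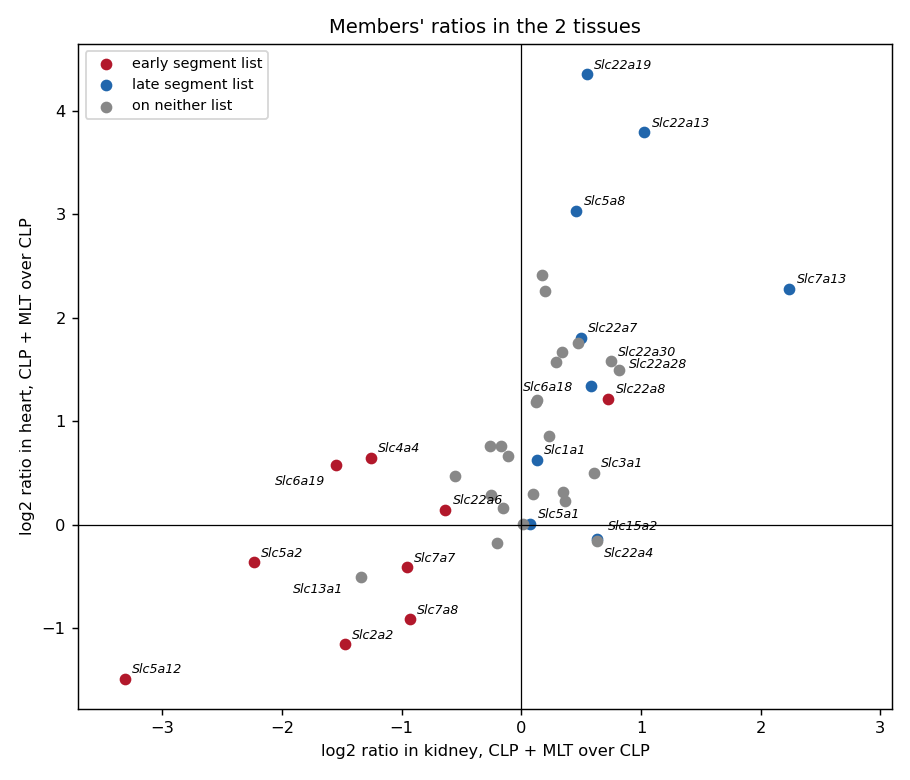
The log2 ratio between treatments in kidney (CLP + MLT over CLP, horizontal axis) is plotted against that in heart (vertical axis) for the 42 members tested in both tissues, coloured by segment list, without Slc7a12. Late members lie to the right, with heart ratios up to 4.35 for Slc22a19, and Slc4a4 lies to the lower side in kidney and the upper side in heart.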

How the data were processed

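Reads were trimmed with trim-galore and aligned to mm10, and the authors deposited raw counts of reads per gene, 1 file per library. The submitters' processing notes name HISAT2 2.1.0 and HTSeq. For the strand setting and the annotation release, the sources used here give nothing. The 5 closing totals of each file, which belong to no gene, entered neither library sizes nor tests. Reads outside genes were 52.1% to 52.6% of those placed on a gene or on none.

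From the deposited counts, TMM factors were computed within each tissue with edgeR 4.0.16 in R 4.3.3 (kidney 1.07 and 0.935), and DESeq2 1.42.0 size factors as an alternative. Within a tissue, genes whose counts averaged 10 or more were tested, and a prior count of 0.5 was added for ratios. All other values came from Python 3.11.15 with pandas 2.3.3 and scipy 1.17.1. Figures were drawn with matplotlib 3.10.9. Symbols were matched for 55141 of 55401 identifiers. Gene positions and exon lengths are those of GENCODE release M21 on GRCm38, the assembly of mm10. The script was tested on simulated counts.

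The members and the gene lists were chosen with earlier results of these data known, and roles, membrane sides and segments were written from general knowledge. All 43 members are named. Counts, ratio and interval were planned for members that were called in kidney and averaged 100 counts or more, and for the highest member of each role per kb; values of other members, the neighbouring pairs and the printed promoters were chosen after they were seen. From other lists, defining markers and at most 2 called genes furthest from 0 were planned. Cd3e, Cd79a, Ahsg and Tat were added for their low counts. Identity between member proteins was not analysed here. The values of some listed genes and promoter motifs are not reported here. The alternatives were other scalings, filters, prior counts and fold thresholds, leaving out mitochondrial genes, and the exact test of edgeR with a coefficient of variation of 0.2 or 0.4 assumed.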

Additional observations from a re-analysis of the deposited data

Results flagged for a closer look

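Slc4a4 was the one member called in opposite directions in the 2 tissues. Its log2 ratio was −1.26 in kidney (5616 counts with CLP and 1473 with CLP + MLT) and 0.65 in heart (256 and 399 counts), so heart minus kidney was 1.91. The heart call was lost at assumed coefficients of variation of 0.2 and 0.4, under a 2-fold threshold and with the interval required wholly beyond 1.5-fold, and the kidney call was lost at 0.4. The difference was not tested, because each group had 1 library.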

How the results depend on the processing

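No paired analysis was possible because each group had 1 library. DESeq2 size factors, the upper quartile, no filter, a prior count of 5 and leaving out mitochondrial genes kept each count of called members within 1.5 times, with no member changing sign.

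Scaling by library size alone moved the median of all kidney genes to −0.19. Under it, 4 members were higher (Slc15a2, Slc22a30, Slc22a4, Slc22a8 and Slc3a1 no longer passed) and 10 lower (Slco1a1 joined). The median of the members turned to −0.063, that of the early list was −1.45 and that of the late list 0.37. The kidney ratio turned below 0 for Slc13a2 (−7.3e-05), Slc1a1 (−0.063), Slc2a5 (−0.025), Slc51b (−0.065), Slc5a1 (−0.12), Slc5a10 (−0.099), Slc6a13 (−0.071) and Slc7a9 (−0.18).

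With edgeR's exact test at an assumed coefficient of variation of 0.2, 2 members were higher in kidney, 5 early members were lower and 2 late members were higher, and in heart 13 were higher (1.84% of all genes) and 0 lower (2.33%). At 0.4 the counts in kidney were 0 higher and 1 lower, with 1 early member lower and 0 late members higher, and in heart 3 higher (0.265%) and 0 lower (0.132%). A fold change of at least 2 left 3 higher in kidney (3.33% of all genes), 5 early members lower (3.67%) and 0 lower in heart (4.18%). A mean of at least 50 counts left 11 higher in heart (5.68%), where 22 members were then tested. Intervals wholly beyond 1.5-fold, chosen after seeing the data, left 6 higher and 9 lower in kidney (3.57% and 3.4% of all genes), and 14 higher and 0 lower in heart (2.89% and 4.45%). With 1 library per group the spread between mice is unknown, and heart ratios of members with under 10 counts have wide counting intervals.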
